A study of Mus musculus with 72 samples.

Results

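The Cyp4a genes encode cytochrome P450 enzymes that hydroxylate fatty acids at the far end of the chain. Of the 55573 genes in the count table, 6 were taken by name, namely Cyp4a10, Cyp4a12a, Cyp4a12b, Cyp4a14, Cyp4a31 and Cyp4a32. The other Cyp4a rows of the table (Cyp4a28-ps, Cyp4a29, Cyp4a29-ps1, Cyp4a30-ps and Cyp4a30b) held 0 to 3 counts each over all libraries together.

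Liver RNA came from 72 adult male mice labelled C57BL/6 (C57BL/6J in the study's methods), 1 library per mouse. All mice carried Bmal1 fl/fl, the loxP-flanked gene of a core clock activator. WT mice had no Cre. LKO mice had Albumin-cre in addition, whose promoter drives Cre recombinase in hepatocytes. Mice were kept with microbes under specific pathogen-free (SPF) conditions or germ free (GF, rederived and held in isolators). This gave 4 groups (SPF WT, GF WT, SPF LKO, GF LKO), each sampled at ZT2, ZT6, ZT10, ZT14, ZT18 and ZT22 (zeitgeber time, hours after lights on in a 12:12 light/dark cycle), 3 mice per group and ZT and so 18 libraries per group. Loss of Bmal1 cannot be told apart here from the presence of Cre, nor lack of microbes from rederivation and isolator housing. In bulk liver, fewer cells of a type and less RNA per cell cannot be told apart.

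Omega-hydroxylation puts a hydroxyl group on the terminal carbon of a fatty acid. Alcohol and aldehyde dehydrogenases then turn this end into a second acid, and the resulting dicarboxylic acid is shortened in peroxisomes. The enzymes sit in the endoplasmic reticulum and receive electrons from Por, the P450 reductase. Cyp4a10 and Cyp4a14 are known as targets of PPARA, the fatty acid receptor of the liver, and rise in fasting and with fibrate drugs. Cyp4a12a is known as the main arachidonic acid omega-hydroxylase of male mice.

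The 6 genes lie within 1 stretch of chromosome 4 (GRCm38), in the order Cyp4a12a (chr4:115299046-115332815), Cyp4a12b (chr4:115411624-115439034), Cyp4a14 (chr4:115486200-115496142), Cyp4a10 (chr4:115518264-115533649), Cyp4a31 (chr4:115563649-115579015) and Cyp4a32 (chr4:115600969-115621602). Cyp4a14 is on the minus strand and the other 5 are on the plus strand. They fall into near-identical copies: the coding sequences of Cyp4a12a and Cyp4a12b were 98.5% identical, with 23 differences in 1524 positions, and those of Cyp4a10 and Cyp4a32 were 97.2% identical. Cyp4a10 and Cyp4a31 shared 96.6% of positions, and Cyp4a31 and Cyp4a32 96.0%. Cyp4a14 stood apart, at 75.1% to Cyp4a10.

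The reads were 50 bases long, so a stretch of 50 bases stands for what 1 read could see. The stretch below lies across the junction of exons 11 and 12, in the part of the coding sequence that encodes the heme-binding loop, and is shown because a read from it names no single copy. Capitals mark bases that differ from Cyp4a10, and the sequences are from the GENCODE vM21 transcripts of GRCm38.
Cyp4a10: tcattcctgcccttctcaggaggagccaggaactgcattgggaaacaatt
Cyp4a31: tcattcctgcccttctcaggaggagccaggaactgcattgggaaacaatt
Cyp4a32: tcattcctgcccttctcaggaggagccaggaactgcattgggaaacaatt
Cyp4a12a: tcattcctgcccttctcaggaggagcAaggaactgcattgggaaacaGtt
Cyp4a12b: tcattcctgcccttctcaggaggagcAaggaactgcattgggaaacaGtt
Cyp4a14: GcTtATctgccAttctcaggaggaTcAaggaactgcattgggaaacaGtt
The first 3 were the same letter for letter, as were Cyp4a12a and Cyp4a12b, and Cyp4a14 had 8 capitals.

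The stretches where copies differ most show what can tell them apart. Cyp4a12a and Cyp4a12b differed by at most 4 bases in any 50 of their coding sequence, here in exon 6 (chr4:115326632-115326681 and chr4:115432885-115432934), and their longest identical run was 342 bases. Capitals mark the bases at which the pair differs.
Cyp4a12a: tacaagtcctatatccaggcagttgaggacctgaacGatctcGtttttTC
Cyp4a12b: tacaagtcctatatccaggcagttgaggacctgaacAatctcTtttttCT
Cyp4a31 and Cyp4a32 differed by up to 7 bases, in exon 2 (chr4:115565032-115565081 and chr4:115602282-115602331).
Cyp4a31: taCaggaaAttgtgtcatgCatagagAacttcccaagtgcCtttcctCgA
Cyp4a32: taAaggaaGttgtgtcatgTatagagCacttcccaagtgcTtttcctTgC
Cyp4a10 and Cyp4a31 differed by up to 6, across exons 3 and 4.
Cyp4a10: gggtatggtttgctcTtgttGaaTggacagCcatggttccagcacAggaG
Cyp4a31: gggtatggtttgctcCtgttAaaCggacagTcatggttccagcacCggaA

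Of all 50-base windows of the transcript, 48.9% in Cyp4a12a and 49.4% in Cyp4a12b also occurred in another of the 6 genes. The share was 43.8% in Cyp4a32, 29.8% in Cyp4a10 and 19.01% in Cyp4a31, and it was 0.0% in Cyp4a14. Reads that matched more than 1 place were not counted. The counts of the copies therefore came from part of each transcript, how reads with an error were split between copies was not tested, and the values of Cyp4a12a, Cyp4a12b, Cyp4a10, Cyp4a31 and Cyp4a32 are uncertain for that reason. The comparisons with ZT pooled were also made with the copies added together, and those by ZT and of rhythms were not. The annotated Cyp4a32 transcript ends 3 bases after its coding part, against 524 bases in Cyp4a10, so part of its reads may lie outside the counted region.

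The libraries held 17369927 to 22076113 counts (median 19106725), and no pair held the same counts. A count for the whole gene cannot show the deleted stretch of Bmal1 (listed as Arntl) on its own, and Arntl ranged from 0.624 to 39.9 CPM (counts per 1000000, scaled by TMM factors) in SPF WT and from 8.52 to 29.2 in SPF LKO. In GF mice Arntl ranged from 0.331 to 40.6 CPM in WT and from 7.04 to 13.4 in LKO. Npas2, a clock gene that Bmal1 feeds back on, separated the genotypes better, with medians of 0.284 and 0.333 CPM in SPF WT and GF WT and of 24.5 and 26.1 in SPF LKO and GF LKO. In 4 libraries the clock genes went against the label. The library labelled SPF LKO ZT14 replicate 2 had 0.219 CPM of Npas2 against 24.0 and 25.03 in the other mice of its group at that ZT. The library labelled SPF LKO ZT18 replicate 1 had 1.82 CPM of it against 27.5 and 36.7. The library labelled SPF WT ZT14 replicate 3 had 2.12 CPM of Arntl against 15.8 and 19.5. At ZT6, the library labelled GF WT replicate 3 had 8.21 CPM of Arntl against 1.62 and 2.43. Npas2 was low in both of these WT libraries (0.207 and 0.115 CPM), near the WT medians, so in them it was the Arntl level for the hour, not Npas2, that stood apart. All 72 libraries stayed in. Values without some or all of these 4 are given where stated, and all other values include them. The p-values weigh a difference against the spread between these mice, which in the fits with ZT pooled includes differences between hours.

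Levels in SPF WT liver differed widely between the 6 genes. By CPM per kilobase of exon, the mean in SPF WT put Cyp4a14 at rank 159 and Cyp4a10 at rank 197 of all 55573 genes. Cyp4a12a stood at rank 483, Cyp4a12b at rank 1019, Cyp4a32 at rank 2340 and Cyp4a31 at rank 6823. The summed level of the 6 genes had a median of 622 CPM per kilobase in SPF WT and 932 in GF WT, and of 231.6 and 232.4 in SPF LKO and GF LKO. The make-up differed as well: Cyp4a10 and Cyp4a14 took a median of 34.01% and 41.99% of that sum in SPF WT and of 35.04% and 42.83% in GF WT. In SPF LKO their medians were 24.8% and 22.7%, and in GF LKO 19.6% and 17.7%. Cyp4a12b, at 5.48% of the sum in SPF WT, took 21.3% in SPF LKO and 26.7% in GF LKO. These ranks and shares use the whole exon length, though reads shared between copies were not counted. They are thus set low for the near-identical copies beside Cyp4a14, which shared no window with them.

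**Figure D1:**
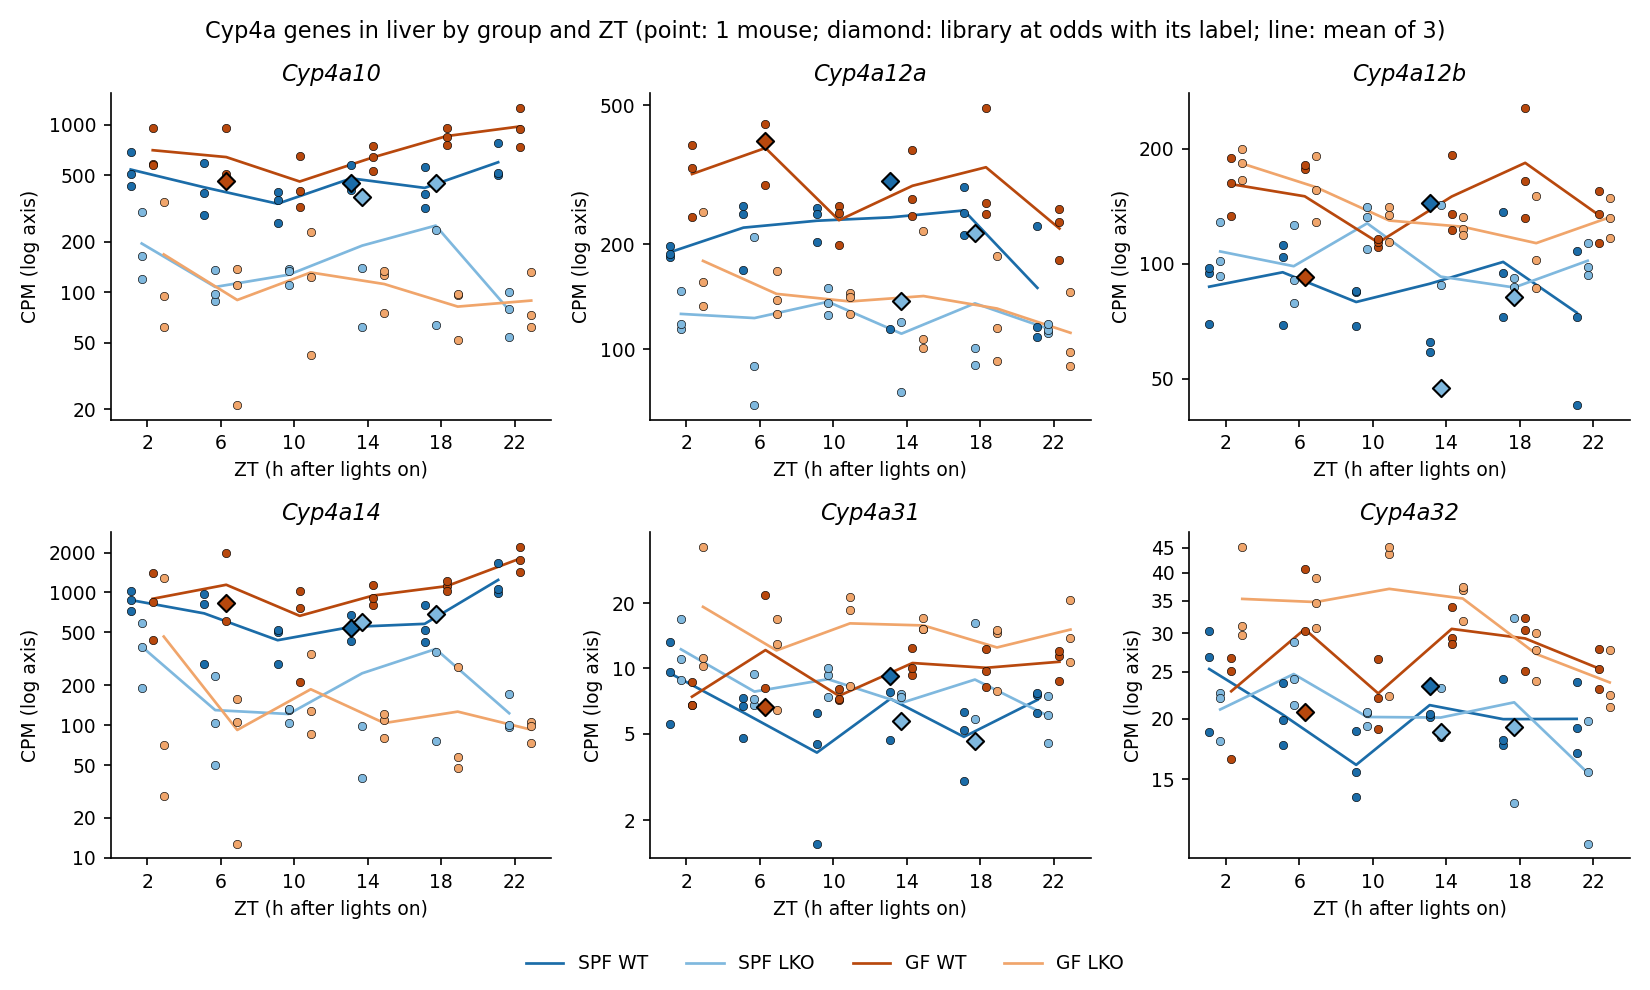
Level of each of the 6 Cyp4a genes (CPM, log axis) against ZT (hours after lights on), with 1 point per mouse, lines through the mean of 3 mice, colors for the 4 groups and diamonds for the 4 libraries at odds with their labels. Cyp4a10 and Cyp4a14 lie lower in LKO than in WT mice for most points of both microbial states, Cyp4a12a less so, and Cyp4a12b, Cyp4a31 and Cyp4a32 do not.

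The first question was what loss of Bmal1 in the liver did to these genes in mice with microbes. Cyp4a10 and Cyp4a14 fell about 3-fold in SPF LKO mice and Cyp4a12a fell less, while Cyp4a12b, Cyp4a31 and Cyp4a32 did not pass the test. Of the 6 genes, 3 were lower and 0 higher at an adjusted p under 0.05 (edgeR, quasi-likelihood, ZT pooled, Benjamini-Hochberg adjusted), and over all 13159 genes tested 11.5% were lower and 11.6% higher.

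Cyp4a10 ranged from 258.6 to 778 CPM in SPF WT (median 439) and from 54.2 to 449 in SPF LKO (median 126). Of the 18 SPF LKO mice, 15 lay below the lowest SPF WT mouse, so the groups overlapped in few mice. The fold change was 2.94-fold lower in LKO (log2 fold change -1.55 ± 0.23 SE, adjusted p = 2.51e-06, n = 18 and 18 mice).

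Cyp4a14 ranged from 289.7 to 1670 CPM in SPF WT (median 705) and from 40.2 to 689.9 in SPF LKO (median 130.4). All 18 SPF LKO mice lay below the SPF WT median, and 13 lay below the lowest SPF WT mouse. Cyp4a14 was 3.15-fold lower (log2 -1.66 ± 0.32, adjusted p = 0.000155).

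Both genes were high in the libraries labelled SPF LKO that lacked Npas2. At ZT14, Cyp4a10 had 368 CPM in the library labelled replicate 2 against 62.4 and 139 in the others, and Cyp4a14 had 599 against 40.2 and 98.3. At ZT18, Cyp4a10 had 449 CPM in the library labelled replicate 1 against 63.9 and 237. Without the 3 SPF libraries at odds with their labels, the log2 fold change was -1.88 for Cyp4a10 and -2.04 for Cyp4a14.

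Cyp4a12a ranged from 108 to 302 CPM in SPF WT (median 219) and from 69.5 to 215 in SPF LKO (median 118). Every SPF LKO mouse lay below the SPF WT median, but 5 of 18 lay below its lowest mouse. The gene was 1.71-fold lower (log2 -0.78 ± 0.14, adjusted p = 5.65e-05).

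Its near-identical copy Cyp4a12b gave 42.7 to 144 CPM in SPF WT (median 84.7) and 47.4 to 142 in SPF LKO (median 95.9). The ranges nearly coincided, and the log2 fold change of 0.23 ± 0.13 did not pass the test (adjusted p = 0.197). Without the 3 libraries at odds it was 0.35 and passed (adjusted p = 0.0196). With the counts of both copies added, the log2 fold change was -0.41 ± 0.12 (adjusted p = 0.00958), so the sum was lower in LKO mice.

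Cyp4a31, the least abundant of the 6, gave 1.56 to 13.3 CPM in SPF WT (median 6.26) and 4.53 to 16.8 in SPF LKO (median 7.44). Its log2 fold change of 0.38 ± 0.18 did not pass (adjusted p = 0.130). It passed without the 3 libraries at odds (0.49, adjusted p = 0.0489) and without the library SPF WT ZT2 replicate 3 (0.47, adjusted p = 0.0493). Cyp4a32 gave 13.8 to 30.3 CPM in SPF WT (median 19.5) and 11.04 to 32.2 in SPF LKO (median 20.2), with a log2 fold change of 0.00 ± 0.10 (adjusted p = 0.984). Added to Cyp4a10, which holds most of the sum, these copies gave -1.39 ± 0.20 (adjusted p = 2.24e-06).

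The same comparison in germ-free mice asked what loss of Bmal1 did without microbes. Cyp4a10 and Cyp4a14 fell about 6-fold in GF LKO mice, Cyp4a12a fell about 2-fold, and Cyp4a31 rose. Of the 6 genes, 3 were lower and 1 higher, against 15.2% lower and 15.6% higher among the 12662 genes tested. 

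Cyp4a10 ranged from 322 to 1251 CPM in GF WT (median 690.2) and from 21.3 to 347 in GF LKO (median 97.1). Of the 18 GF LKO mice, 17 lay below the lowest GF WT mouse and the other one just above it. The gene was 6.35-fold lower (log2 -2.67 ± 0.24, adjusted p = 1.10e-11, edgeR, n = 18 and 18).

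Cyp4a14 ranged from 210.7 to 2198 CPM in GF WT (median 1022) and from 12.8 to 1295 in GF LKO (median 102). The group ranges overlapped through a few mice, with 15 of 18 GF LKO mice below the lowest GF WT mouse. Cyp4a14 was 6.18-fold lower (log2 -2.63 ± 0.41, adjusted p = 2.36e-06). One mouse weighed on that value: GF LKO ZT2 replicate 1 had 1295 CPM against 70.6 and 29.1 in the others, and also 347 CPM of Cyp4a10 against 95.3 and 61.9. Without it the log2 fold change of Cyp4a14 was -3.29.

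Cyp4a12a ranged from 181 to 489.5 CPM in GF WT (median 260.1) and from 89.9 to 248 in GF LKO (median 136). All GF LKO mice lay below the GF WT median and 15 of 18 below its lowest mouse. The gene was 2.10-fold lower (log2 -1.07 ± 0.13, adjusted p = 2.14e-08). Cyp4a12b, in contrast, gave 92.5 to 255 CPM in GF WT (median 135) and 86.3 to 199.7 in GF LKO (median 133), and its log2 fold change of -0.08 ± 0.11 did not pass (adjusted p = 0.612). Added together, the copies gave -0.66 ± 0.11 (adjusted p = 7.35e-06).

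Cyp4a31 went the other way. It gave 6.66 to 21.7 CPM in GF WT (median 8.72) and 6.46 to 36.2 in GF LKO (median 14.8), with 15 of 18 GF LKO mice above the GF WT median. It was 1.56-fold higher (log2 0.64 ± 0.17, adjusted p = 0.00322), a call lost without replicate 3 of every group and ZT (adjusted p = 0.0633). Cyp4a32 gave 16.5 to 40.7 CPM in GF WT (median 26.6) and 21.1 to 45.2 in GF LKO (median 30.9). Its log2 fold change of 0.27 ± 0.11 missed the threshold (adjusted p = 0.0507), and it passed in 11 of 36 fits that left out 1 library and with ZT as a factor (adjusted p = 0.0415).

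**Figure D2:**
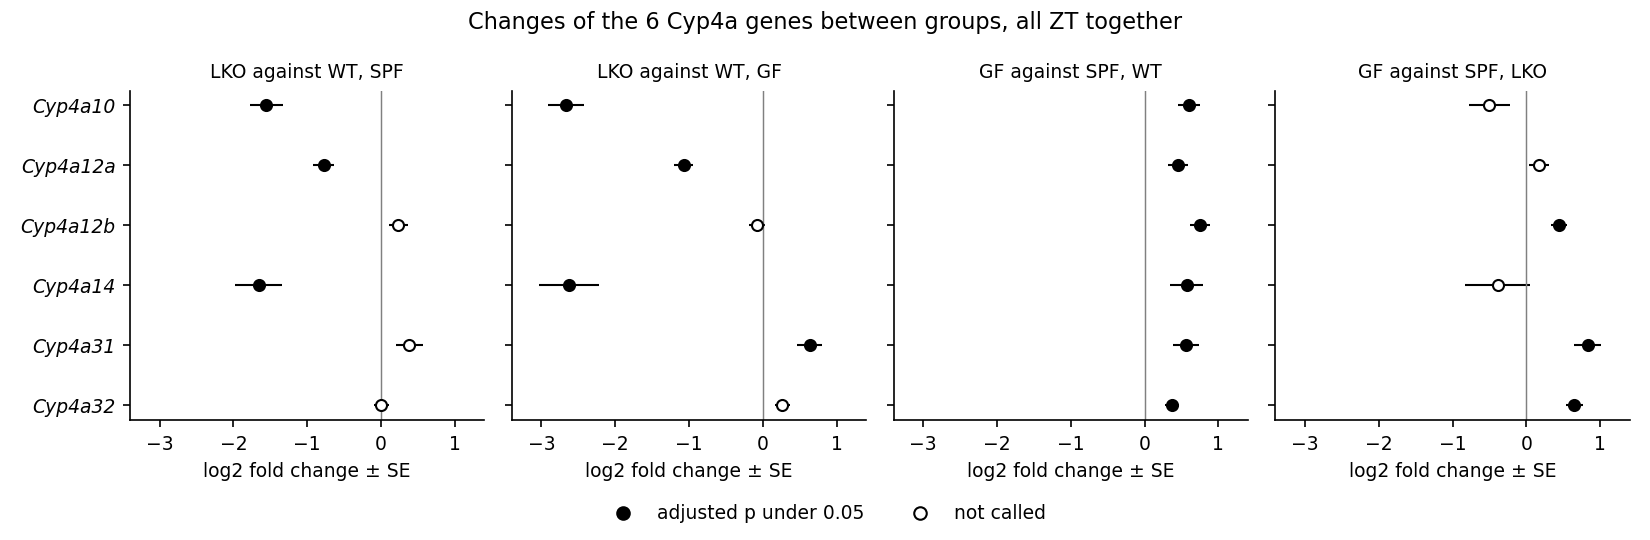
Log2 fold change of the 6 Cyp4a genes with its standard error (bars) in 4 comparisons of 18 with 18 mice, filled where the adjusted p was under 0.05. LKO against WT, 3 genes lie left of zero in both microbial states, and GF against SPF, all 6 lie right of zero in WT mice and 4 in LKO mice.

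In the Cyp4a12 pair, the balance of the copies differed between genotypes. The ratio of Cyp4a12a to Cyp4a12b counts within a library needs no scaling between libraries, and it was looked at after the values were seen, so it is a description with no test. In SPF WT it ranged from 1.60 to 5.09 (median 2.39) and in SPF LKO from 0.843 to 2.90 (median 1.11). In GF WT it ranged from 1.34 to 4.26 (median 1.92) and in GF LKO from 0.665 to 1.76 (median 1.01). The highest SPF LKO ratios belonged to the 2 libraries with little Npas2 and the highest GF WT ratio to the library at odds with its label there, and without these the highest was 1.67 in SPF LKO and 2.44 in GF WT. LKO livers thus held about as many Cyp4a12a as Cyp4a12b counts, and WT livers about 2 times as many.

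**Figure D3:**
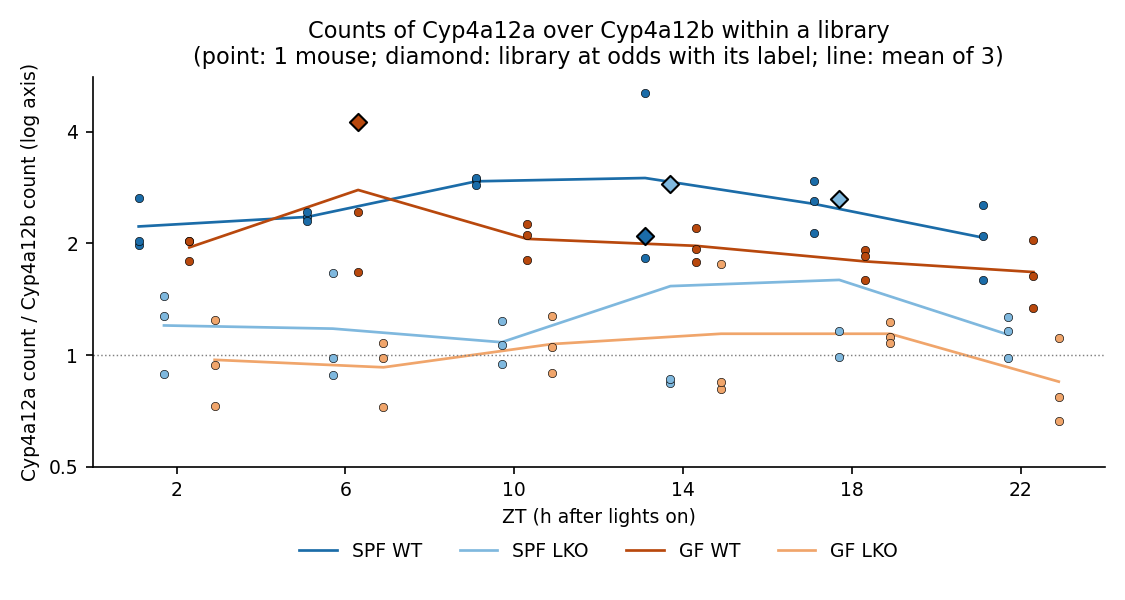
Ratio of the Cyp4a12a count to the Cyp4a12b count within each library (log axis) against ZT, with 1 point per mouse, lines through the mean of 3 and diamonds for the 4 libraries at odds with their labels. WT libraries of both microbial states lie at 1.34 or above, and most LKO libraries lie between 0.665 and 1.76.

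The microbial comparisons share groups with the comparisons above: the WT comparison reuses both WT groups and the LKO comparison both LKO groups, so values are set side by side and not combined. In WT mice all 6 genes were higher without microbes at an adjusted p under 0.05, against 14.2% of the 12776 genes tested, by 1.296-fold to 1.68-fold. Cyp4a12b rose most, by a log2 fold change of 0.75 ± 0.13 (adjusted p = 3.98e-05), and all 18 GF WT mice lay above the SPF WT median. Cyp4a10 rose by 0.60 ± 0.15 (adjusted p = 0.00212), Cyp4a31 by 0.56 ± 0.17 (adjusted p = 0.0127), Cyp4a12a by 0.45 ± 0.14 (adjusted p = 0.00981) and Cyp4a32 by 0.37 ± 0.10 (adjusted p = 0.00340). Cyp4a14, at 0.57 ± 0.22, passed narrowly (adjusted p = 0.0486) and lost its call in 21 of 36 fits without 1 library (adjusted p up to 0.0933) and without the 2 WT libraries at odds (adjusted p = 0.0607). Without replicate 2 of every group and ZT, 2 of the 6 genes passed, and without ZT6 3 did. Other lists rose in the same comparison: 5 of 8 hepatocyte markers (0 fell, median log2 fold change 0.33), 5 of 9 pericentral markers (0 fell, median 0.28) and 8 of 17 tested male-biased genes (2 fell, median 0.28), with a median of -0.02 over all genes. Of 9 tested female-biased genes, 4 rose and 1 fell (median 0.47). The part of these lists in the rise of the Cyp4a genes was not tested.

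In LKO mice 3 of the 6 genes were higher without microbes and 0 lower, with 18.1% of the 13010 genes tested higher and 18.4% lower. They were the genes that had not fallen with the loss of Bmal1. Cyp4a31 rose by a log2 fold change of 0.83 ± 0.18 (adjusted p = 0.000500), Cyp4a32 by 0.65 ± 0.11 (adjusted p = 2.69e-05) and Cyp4a12b by 0.45 ± 0.11 (adjusted p = 0.00145). All 18 GF LKO mice lay above the SPF LKO median of Cyp4a32, and 17 of 18 above that of Cyp4a31 and of Cyp4a12b. In the same comparison 12 of 17 tested male-biased genes rose (2 fell, median 0.43) and 5 of 8 hepatocyte markers rose (1 fell, median 0.29), with a median of -0.02 over all genes, and 2 of 9 pericentral markers rose and 2 fell. Of 7 tested female-biased genes, 2 rose and 2 fell (median -0.10). The part of these lists was not tested here either.

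The other 3 did not pass in LKO mice. Cyp4a12a changed by 0.17 ± 0.13 (adjusted p = 0.324), Cyp4a10 by -0.50 ± 0.28 (adjusted p = 0.164) and Cyp4a14 by -0.39 ± 0.44 (adjusted p = 0.522). Without the mouse GF LKO ZT2 replicate 1, Cyp4a10 (-0.69, adjusted p = 0.0418) and Cyp4a14 (-1.05, adjusted p = 0.0255) were lower in GF mice. Without the 2 libraries at odds with the SPF LKO label, their values were -0.18 and -0.02. With the copies added, Cyp4a12a and Cyp4a12b together were higher (0.30 ± 0.10, adjusted p = 0.0173).

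Whether the genotype effect differed between germ-free and SPF mice was tested on all 72 libraries. By edgeR 0 of the 6 genes passed, with 0.438% of the 13484 genes tested called. At an unadjusted p under 0.05 there was 1, Cyp4a10, whose fall was larger in GF mice by a log2 difference of -1.12 ± 0.33 (edgeR, adjusted p = 0.143), and DESeq2 gave the same counts of 0 and 1. Without the 4 libraries at odds this difference was -0.83 (adjusted p = 0.511). Cyp4a14 differed by -0.98 ± 0.51 (adjusted p = 0.809).

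By hour of day, Cyp4a10 and Cyp4a14 separated most at ZT22. In SPF mice at ZT22, Cyp4a10 had 498, 513 and 778 CPM in WT and 101, 54.2 and 79.2 in LKO. Cyp4a14 had 988, 1068 and 1670 CPM in WT and 171, 97.04 and 100.4 in LKO. No LKO mouse came near a WT mouse there, and the log2 fold changes were -2.93 ± 0.32 and -3.33 ± 0.27 (edgeR on the 12 libraries of that ZT, adjusted p = 9.996e-05 and 1.10e-05), while 3.31% of all genes were called at ZT22 and 10.5% of all tests of a gene at a ZT in SPF mice had every LKO mouse below every WT mouse.

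In GF mice at ZT22, Cyp4a10 had 733, 1251 and 943 CPM in WT and 62.4, 132 and 72.7 in LKO. Cyp4a14 had 1439, 2198 and 1771 CPM in WT and 73.5, 105 and 98.5 in LKO, 19.6-fold lower (log2 -4.29 ± 0.29, adjusted p = 1.16e-06), with 4.44% of all genes called there. The difference of the fold change between ZT was not tested.

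Over the 36 tests of 6 genes at 6 ZT, 7 passed for the genotype effect in SPF mice (6 lower and 1 higher, against 4.92% of tests over all genes) and 17 in GF mice (16 lower and 1 higher, against 7.99%). With no filter on low counts 21 passed in SPF mice, but the share over all genes under that setting is not given here. The 7 calls in SPF mice were at ZT6 (Cyp4a10), ZT10 and ZT22. At ZT10, where 11.9% of all genes were called, the copies of the Cyp4a12 pair passed in opposite directions. Cyp4a12a had 203, 253 and 244 CPM in SPF WT and 126, 135 and 149.7 in SPF LKO (log2 -0.76 ± 0.12, adjusted p = 0.000912). Cyp4a12b had 68.7, 84.3 and 85.1 CPM in SPF WT and 132, 109 and 141 in SPF LKO (0.69 ± 0.12, adjusted p = 0.00170). Neither gene's groups overlapped at that ZT, as in 10.5% (lower) and 10.7% (higher) of all tests of a gene at a ZT.

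At ZT2, ZT14 and ZT18 in SPF mice 0 of the 6 genes passed by edgeR or DESeq2, with 2, 2 and 1 at an unadjusted p under 0.05. Over all genes 6.89%, 0.0% and 0.015% were called there, and ZT14 and ZT18 hold the 3 SPF libraries at odds with their labels. In GF mice Cyp4a10 was lower at all 6 ZT and the WT and LKO ranges did not overlap at any of them, against 13.5% of all tests of a gene at a ZT. Cyp4a14 was called lower at 5 ZT, and at ZT2 the mouse with 1295 CPM lay among the WT mice. The 1 higher call was Cyp4a32 at ZT10 (log2 0.72 ± 0.22, adjusted p = 0.0404). Leaving out 1 library lost 3 of the 7 SPF calls and 10 of the 17 GF calls.

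Of the microbial tests by ZT, 3 passed by edgeR in WT mice (against 2.89% of tests) and 4 in LKO mice (against 2.71%), each higher in GF mice. These counts depended on the tool and the filter: DESeq2 gave 6 and 7, and edgeR with no filter on low counts gave 26 and 19. The shares over all genes are from the main fit and cannot be set beside these other counts. At ZT2 Cyp4a12b had 69.4, 94.4 and 97.3 CPM in SPF WT and 163, 133 and 189 in GF WT (log2 0.90 ± 0.17, adjusted p = 0.00699). The groups did not overlap (12.6% of tests), and this call held without any single library, while the other 6 were each lost without some library. In LKO mice they were Cyp4a12b and Cyp4a32 at ZT2, Cyp4a32 at ZT14 and Cyp4a31 at ZT22.

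A 24 h cosine was fitted within each group, and the genes that passed are given beside the share of all genes. With only 6 genes, their counts were not tested against that share. In SPF WT, 1 of 6 passed (16.9% of genes did), Cyp4a14, with an amplitude of 0.64 on the log2 scale and a peak at ZT 23.6 (adjusted p = 0.0161). Its mean was 1242 ± 373 CPM (SD, n = 3) at ZT22 and 437 ± 127 at ZT10, a 2.84-fold span. In GF WT, 1 of 6 passed (29.4% of genes), Cyp4a10, with an amplitude of 0.46 and a peak at ZT 21.4 (adjusted p = 0.0164), and with 976 ± 260 CPM at ZT22 against 458 ± 169 at ZT10. The peaks of both genes in both WT groups fell late in the dark phase, between ZT 21.4 and ZT 23.6, passed or not.

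In SPF LKO, 0 of 6 passed by edgeR (24.5% of genes did), with 0 at an unadjusted p under 0.05, and limma gave 0 as well. In GF LKO, 2 of 6 passed (38.6% of genes), Cyp4a12b (amplitude 0.30, peak at ZT 3.75, adjusted p = 0.00695) and Cyp4a32 (0.29, peak at ZT 8.62, adjusted p = 0.0426). Each of these 4 calls was lost without at least 1 replicate number. Tested directly, the rhythm differed in 0 of 6 genes in each of the 4 pairs of groups by edgeR, with 0 at an unadjusted p under 0.05 and 0 by limma. Over all genes 1.77% and 5.89% were called between genotypes in SPF and GF mice, and 0.0371% and 2.54% between microbial states in WT and LKO mice.

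The enzymes that act with and after the Cyp4a hydroxylases were mostly lower in LKO livers. Of 26 genes of omega-oxidation and peroxisomal dicarboxylate oxidation, 16 fell and 1 rose in SPF mice (median log2 fold change -0.31, with -0.01 over all genes), and 19 fell and 1 rose in GF mice (median -0.59, with 0.01 over all genes). Por, which passes electrons to the P450 enzymes, fell (log2 fold change -1.04 in SPF mice and -1.93 in GF mice). Aldh3a2, the fatty aldehyde dehydrogenase that follows omega-hydroxylation, fell as well (-1.55 and -2.32). Abcd2, a peroxisomal fatty acyl-CoA transporter, fell (-1.25 and -2.35), as did Acot3 (-2.01 and -5.12), a peroxisomal thioesterase. The Acot3 value depended on the 3 libraries at odds in SPF mice, without which it was -4.43. The other 3 also had a highest SPF LKO value far above the group's median: Por 533 against 94.8 CPM, Aldh3a2 542 against 135 and Abcd2 28.8 against 6.78. Their values without the libraries at odds are not given here. The SPF call of Por was lost in 2 alternatives, with an adjusted p (edgeR) up to 0.0714 when a replicate number was left out.

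Of 25 other PPARA targets, 16 fell and 1 rose in SPF mice (median -0.33) and 19 fell and 1 rose in GF mice (median -0.52). Acot1, a cytosolic acyl-CoA thioesterase, fell (-0.93 and -1.65), and Cidec, a lipid droplet protein, fell too (-1.005 and -1.36). Pdk4, which restrains pyruvate oxidation, was the gene that rose (1.56 and 0.96). Of 15 genes for PPARA and its partners, 4 fell and 1 rose in SPF mice, and 4 fell and 2 rose in GF mice. Ppara itself fell (-0.67 and -0.80), Pparg, its relative in fat cells, fell (-0.43 and -1.09), and the third receptor Ppard rose (1.72 and 1.39). The SPF call of Pparg was lost in 6 alternatives, with an adjusted p (edgeR) up to 0.158 when a replicate number was left out.

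The enzymes of other Cyp4 subfamilies did not move with Cyp4a10 and Cyp4a14. Of 14 listed, 7 could be tested in SPF mice, and 0 fell and 2 rose in each microbial state, namely Cyp4f14 (0.32 and 0.33) and Cyp4f17 (0.29 and 0.35). Growth hormone controls sex-biased genes of the liver, Cyp4a12a among them. Of 17 tested male-biased genes other than the Cyp4a genes, 3 fell and 6 rose in SPF mice and 3 fell and 7 rose in GF mice. Among them the elongase Elovl3 (1.47 and 1.21) and the oxysterol hydroxylase Cyp7b1 (1.03 and 1.33) rose, and Serpina1e (-0.89 and -0.75), a protease inhibitor, fell. Of the female-biased genes tested, 2 of 8 fell and 2 rose in SPF mice and 4 of 9 fell and 3 rose in GF mice. The estrogen sulfotransferase Sult1e1 rose (3.87 and 5.42), and Cyp2b9 fell in GF mice (-3.89). Both changes start from or end at low levels. Median CPM of Sult1e1 was 0.335 in SPF WT and 3.02 in SPF LKO, and 1.89 in GF WT and 110 in GF LKO. That of Cyp2b9 was 1.59 in GF WT and 0.0800 in GF LKO. Of 12 genes of growth hormone signaling, 0 fell and 3 rose in SPF mice, and 1 fell and 2 rose in GF mice. Socs2, an inhibitor of the pathway, rose (1.01 and 1.10), but its SPF call was lost without SPF LKO ZT10 replicate 1 (0.79) or replicate 2 (0.86). Its GF call was lost without GF LKO ZT10 replicate 1 (0.94), ZT14 replicate 2 (1.01) or ZT18 replicate 2 (0.97), and over all alternatives its adjusted p reached 0.389 in SPF and 0.290 in GF mice. Stat5b, its transcription factor, rose in GF mice (0.54). Igfals, which carries IGF1 in plasma, fell there (-0.39). The receptor Ghr (0.07 and -0.03) and the repressor Bcl6 (-0.14 and 0.20) did not pass.

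**Figure D4:**
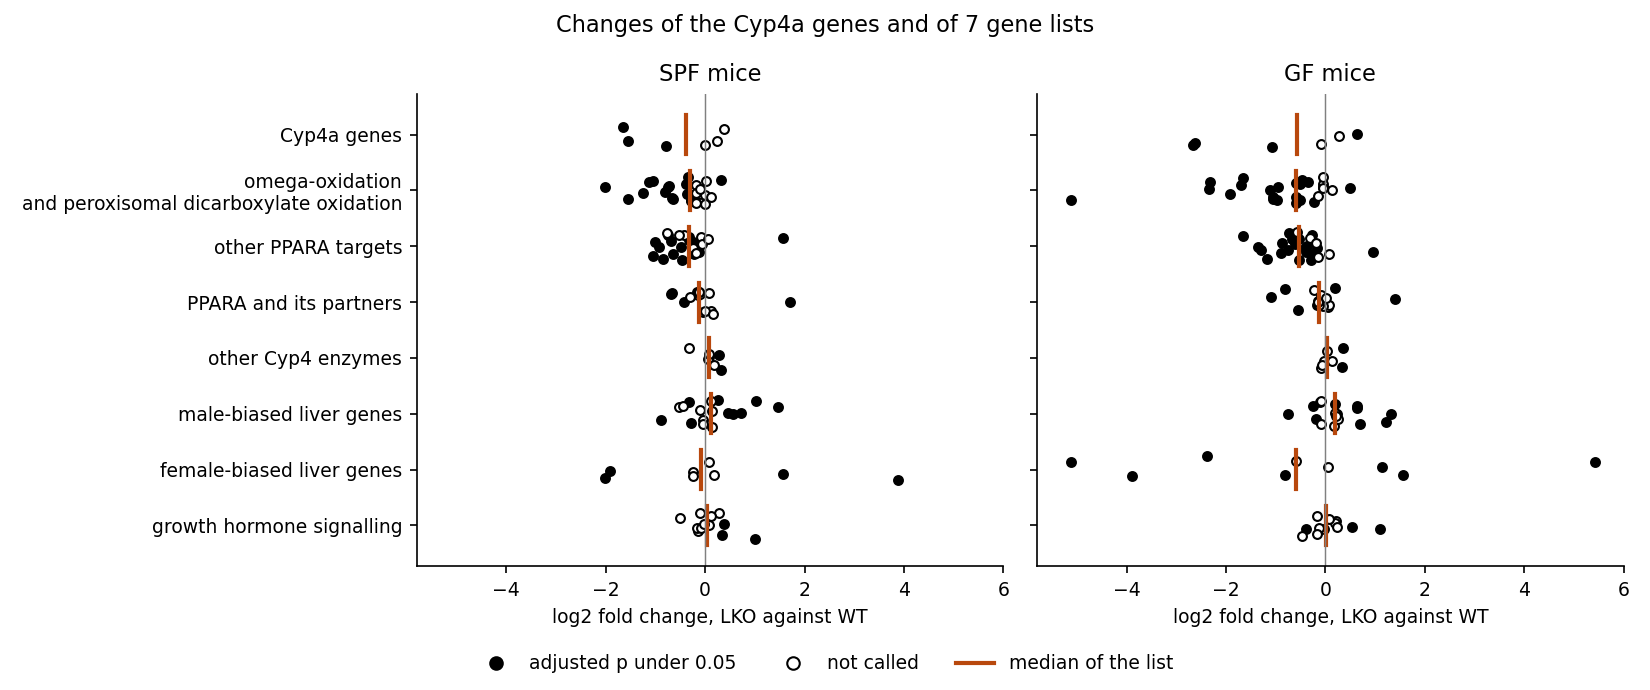
Log2 fold change of LKO against WT mice for the 6 Cyp4a genes and for each tested gene of 7 lists, in SPF mice (left) and GF mice (right), filled where the adjusted p was under 0.05, with a bar at the median of each list. The medians of the omega-oxidation list (-0.31 and -0.59) and of the other PPARA targets (-0.33 and -0.52) lie left of zero.

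With microbes absent, the omega-oxidation list had more genes higher than lower in WT mice and fewer in LKO mice. Of its 26 genes tested in WT mice 7 rose and 1 fell (median log2 fold change 0.11). Over all genes 14.2% were higher there, with a median of -0.02. Of 25 tested in LKO mice 4 rose and 10 fell (median -0.12). Over all genes 18.1% were higher and 18.4% lower there, with a median of -0.02. Of the 25 other PPARA targets, 3 rose and 1 fell in WT mice (median 0.12), and 2 rose and 3 fell in LKO mice (median -0.04).

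Likeness of pattern was measured by Pearson's r of log2 CPM over the 24 means of group and ZT, among 10710 genes, as a description in which the points share their groups. Cyp4a10 was most like Cyp4a14 (r = 0.98), then Suclg2 (0.97), a subunit of succinyl-CoA ligase, and Alb (0.96), serum albumin. Suclg2 was itself lower in LKO mice (-0.35 with microbes and -0.52 without). For Cyp4a14 the next after Cyp4a10 were Suclg2 (0.94) and Qpct (0.93). Cyp4a12a was most like the fatty acid binding protein Fabp1 (0.90), the retinol dehydrogenase Rdh16 (0.90) and Alas2 (0.88), a heme synthesis enzyme.

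The other copies followed other genes. Cyp4a12b was most like Cav1 (0.87), Mccc1 (0.85) and Cideb (0.84), none of which passed for the genotype effect. Cyp4a31 was most like Agt (0.85), Pigr (0.84) and Itih2 (0.83), and Cyp4a32 like Sugct (0.83), Vtn (0.83) and Mapkapk2 (0.82). Among the 6 genes, Cyp4a31 and Cyp4a32 had r = 0.82 and Cyp4a12b and Cyp4a32 0.68, whereas the near-identical Cyp4a12a and Cyp4a12b had 0.32 and Cyp4a10 and Cyp4a12b -0.03.

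Markers of other cell types were read beside these changes, since Cyp4a genes are also active in the kidney. All 6 kidney tubule markers were below 0.1 CPM on average, and their sum reached at most 0.160 CPM in a library. The labelled tissue had its hepatocyte markers at a summed median of 110371 CPM in SPF WT, 63244 in SPF LKO, 138840 in GF WT and 66421 in GF LKO. Most of that difference was Alb (medians 83712, 36414, 104308 and 32080 CPM), the 1 of 8 hepatocyte markers that fell in SPF mice. Of 7 Kupffer cell markers, 4 fell in SPF mice (summed medians 284 CPM in WT and 244 in LKO) and 3 in GF mice (254 and 213). Of 5 tested cholangiocyte markers, 1 rose in SPF mice and 2 in GF mice (44.1 and 91.2 CPM). Pericentral markers, of which 9 were tested, split 2 lower and 2 higher in SPF mice and 4 lower and 2 higher in GF mice. Their part in the changes of the Cyp4a genes was not tested.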

How the data were processed

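Liver RNA of 72 male mice was sequenced from single-end 50-base reads of stranded mRNA libraries. The authors aligned reads with STAR 2.6.1b to mm10 (GRCm38) and counted exons of the Ensembl annotation with featureCounts 2.0.0, ignoring strand and dropping reads with more than 1 alignment or more than 1 gene. The deposited values are counts per gene, not normalized. Libraries were grouped by their labels, and 0 columns were left unused. Total counts were 17369927 to 22076113 per library, which sets the precision of low genes such as Cyp4a31.

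The quasi-likelihood test of edgeR 4.0.16 in R 4.3.3 (filterByExpr, TMM scaling) compared 2 groups over 36 libraries, groups within a ZT over 12 and genotype effects over 72, with p-values adjusted after Benjamini and Hochberg over all genes and called under 0.05. Rhythms were tested by a 24 h cosine and sine term. The fits were tested on simulated data. DESeq2 1.42.0, limma 3.58.1, other scalings and filters, the replicate block and left-out libraries served as alternatives. Sums of near-identical copies were added after the data were seen. The study's own rhythm test was not used here. Per-kilobase values used the length of the exons, and sequences came from the GENCODE vM21 transcripts (Python 3.11.15).

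The 6 genes and the lists were chosen with earlier results of these data known. Named genes were the 6 members, the 3 largest called genotype effects per list, Ppara, Por, Aldh3a2, Ghr, Stat5b, Bcl6, Arntl and Npas2, and the 3 genes most like each member. Other named genes are said to be so.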

Additional observations from a re-analysis of the deposited data

Results flagged for a closer look

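The fall in LKO mice was not shown to differ between GF and SPF mice for any of the 6 Cyp4a genes. Among the other genes named or listed, 4 passed, each with a larger fall in GF mice. The test was edgeR's quasi-likelihood test on 72 libraries with Benjamini-Hochberg adjustment, and 0.438% of all 13484 genes tested passed it. Alb differed by -0.73 ± 0.16 on the log2 scale (adjusted p = 0.00967), with effects of -0.98 in SPF and -1.70 in GF mice, a call lost in 6 of 19 alternatives, among them each replicate number left out (adjusted p up to 0.326). Acaa1b, a peroxisomal thiolase, differed by -0.91 ± 0.17 (adjusted p = 0.00115), with -0.80 and -1.70, and Ehhadh, a bifunctional enzyme of peroxisomal oxidation, by -0.61 ± 0.14 (adjusted p = 0.0156), with -0.36 and -0.96. Ehhadh and Acaa1b are named after their values were seen, and their values under the alternatives are not given here. Whether their differences hold without the 4 libraries at odds with their labels is therefore not shown. Acot3 differed by -3.12 ± 0.79 (adjusted p = 0.0464), with -2.01 and -5.12, a call lost in 16 of 19 alternatives. Without the 4 libraries at odds with their labels the Acot3 difference was -0.54 (adjusted p = 0.991).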

How the results depend on the processing

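No fold change followed through the alternatives changed sign where the main fit or the alternative passed. Counts of calls and rhythms had no direction to reverse. Cyp4a32, not called for genotype in SPF mice, ranged from -0.046 to 0.046 when 1 library was left out. Counts of the 6 genes called (pooled, by ZT and for rhythms) stayed within 1.5 times their main value in 557 alternatives, rose past it in 9 and fell below it in 11. In the counts by ZT, a left-out library changed its own ZT only, and the other ZT kept their main calls. Counts with no call in the main fit were included too. The tally therefore does not measure how firm the calls are. Without the 3 SPF libraries at odds with their labels, 5 genes passed for the genotype effect in SPF mice in place of 3, and without ZT6 3 passed for the microbial effect in WT mice in place of 6. By ZT, no filter on low counts gave 21 calls in place of 7 for the genotype effect in SPF mice, 26 in place of 3 for the microbial effect in WT and 19 in place of 4 in LKO mice, and DESeq2 gave 6 and 7 for the last 2. The shares of all genes called under these settings are not given here, so these counts are not a result about the Cyp4a genes. The cause of the differences between settings was not tested. For rhythms, no filter gave 2 genes in place of 1 in GF WT, and limma 1 in place of 2 in GF LKO.

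With a replicate or a library left out, pooled calls ranged from 3 to 4 for genotype in SPF, 3 to 5 for genotype in GF, 2 to 6 for microbes in WT (2 without replicate 2) and 3 to 5 for microbes in LKO mice (5 without GF LKO ZT2 replicate 1), and stayed at 0 for the difference of effects. By ZT they ranged from 5 to 9, 15 to 18, 2 to 5 and 2 to 6. Rhythm calls ranged from 0 to 1 in SPF WT and GF WT and 0 to 2 in GF LKO. Same-numbered mice did not deviate together (correlations of deviations from -0.203 to 0.305), so replicate numbers gave no pairing. With the replicate block, rhythm calls in GF LKO numbered 1, and 1 SPF genotype, 2 GF genotype and 2 microbial calls by ZT were lost. Depth limits Cyp4a31 most, at 1.56 CPM in its lowest library.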
